A study of Mus musculus with 6 samples.

Results

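The cytosolic heat shock proteins are described here through 10 genes, which were taken from the expression table by their gene symbols. They were Hspa1a, Hspa1b, Hspa8, Hspa4, Hsph1, Dnajb1, Hsp90aa1, Hsp90ab1, Hspb1 and Hsf1. All 10 were found among the 54532 genes of the table, and 9 of them were among the 12755 genes with enough expression to be tested. RNA-seq libraries were made from primary bone-marrow-derived macrophages (BMDMs) of C57BL/6 mice in 3 groups of 2 replicates. The first group was left untreated. The second received LPS at 100 ng/ml for 2 h, a bacterial cell wall lipid that macrophages detect with the receptor TLR4. The third received the antidiabetic drug metformin at 5 mM for 6 h before an identical LPS treatment (Met + LPS). No library received metformin without LPS, so Met + LPS was compared with LPS and with untreated cells, and these comparisons share libraries. All cells, untreated ones included, had been differentiated in medium conditioned by L929 cells. The study's methods say that the cells for RNA-seq were seeded in duplicate, and neither they nor the labels name separate animals for the replicates. The p-values therefore measure only the spread between these libraries, which may be technical.

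Heat shock proteins are molecular chaperones that bind unfolded or partly folded proteins. Hsp70 proteins bind and release their clients in a cycle driven by ATP, which J-domain proteins (Hsp40) start and nucleotide exchange factors such as the Hsp110 proteins complete, and many clients are then passed on to Hsp90. Some members are made at all times while others are induced by stress, when the transcription factor HSF1 is freed from chaperones, forms trimers and binds heat shock elements, which are inverted repeats of the letters GAA, in the promoters of their genes.

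The promoter sequences are shown for the members in which a pair of inverted GAA units was found before the start site listed by RefSeq. Heat shock elements are built from such units, but a pair is shorter than the longer form given below. Binding of HSF1 was not tested. Sequences are from RefSeq on GRCm38.p6, where 6 members had a promoter window and Hspa8, Hsp90aa1, Hsp90ab1 and Hsf1 did not. Each line gives the 150 bases before the start site, 5′ to 3′ on the strand of the gene, and capitals mark a match to GAANNTTC or TTCNNGAA. Both motifs read the same on the other strand, and matches of the 2 motifs can overlap by a shared unit. Hspa1a lies at chr17:34972157-34972306 (minus strand), Hspa1b at chr17:34959239-34959388 (minus strand), Hspb1 at chr5:135887769-135887918 (plus strand) and Hsph1, for which the first of 2 listed start sites is shown, at chr5:149636337-149636486 (minus strand).
Hspa1a: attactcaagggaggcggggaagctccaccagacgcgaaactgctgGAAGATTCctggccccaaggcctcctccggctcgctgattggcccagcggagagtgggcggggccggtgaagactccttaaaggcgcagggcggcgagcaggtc
Hspa1b: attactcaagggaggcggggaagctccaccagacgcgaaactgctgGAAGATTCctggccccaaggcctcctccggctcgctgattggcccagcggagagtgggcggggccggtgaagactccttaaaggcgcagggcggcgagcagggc
Hspb1: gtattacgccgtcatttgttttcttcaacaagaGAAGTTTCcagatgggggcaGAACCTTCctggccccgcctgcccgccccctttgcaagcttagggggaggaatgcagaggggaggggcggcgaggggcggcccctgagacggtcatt
Hsph1: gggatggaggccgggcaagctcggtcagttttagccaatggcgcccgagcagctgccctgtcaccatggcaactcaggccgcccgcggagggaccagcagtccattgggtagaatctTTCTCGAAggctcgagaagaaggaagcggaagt

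Hspa1a and Hspa1b, the neighbouring genes of the stress-inducible Hsp70, carried the same match, from position -104 to -97 relative to the start site, and their 150 bases were identical at 149 positions (99.3%). Hspb1 held 2 matches to GAANNTTC, from -117 to -110 and from -97 to -90. Hsph1 held TTCNNGAA from -33 to -26 relative to the start site shown. In the expression table, however, this gene on the minus strand begins further upstream, at 149636376. The match and the bases after it thus lie within the gene as annotated there. Over windows of 300 bases (250 before and 50 after the start site), 4946 of 32851 mouse promoter windows (15.1%) held either motif, so that a match alone is common. A longer form, in which a further unit of alternating direction follows after 2 free bases, was in 0.603% of the windows and, among the 6 members with a window, only in that of Hsph1, from 37 to 49 after the start site shown. The windows of Dnajb1 and Hspa4 held no match, which says only that these letters are not in these windows.

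Levels are given in TPM, transcripts per 1000000 transcripts. The authors' read counts are corrected for the length of the gene in this unit, and every library adds up to an equal total. Levels of different genes can be compared with a limit, since how reads shared by several genes were counted is not given. Of the stretches of 31 bases, 29.9% occurred in no other gene for Hspa1a, 31.9% for Hspa1b and 44.6% for Hspb1. This part was 48.5% for Hsp90aa1, 55.2% for Hspa8, 86.8% for Hsp90ab1 and 99.6% to 100% for the others. Hsp90ab1, the constitutive cytosolic Hsp90, had the highest mean TPM in each group, followed by Hspa8, the constitutive Hsp70. Together they made up 80.7% to 82.2% of the summed TPM of the 10 genes. This sum was 2145 and 2134 TPM in untreated BMDMs, 2434 and 2276 TPM after LPS, and 2343 and 2292 TPM after Met + LPS, or between 0.213% and 0.243% of all TPM. In untreated cells Hsp90aa1 and Hspa4 came next, and their ranges met near 149 TPM, so that they did not differ beyond their spread. They were followed by Dnajb1, Hsph1 and Hsf1, then by Hspa1b (1.64 and 2.04 TPM) and Hspa1a (1.02 and 1.36 TPM), and Hspb1 was the lowest. After LPS, Hspa1b rose above Dnajb1, Hsph1 and Hsf1, while Hspa1a (9.61 and 10.9 TPM) came close below Hsf1 (11.6 and 11.4 TPM).

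**Figure D1:**
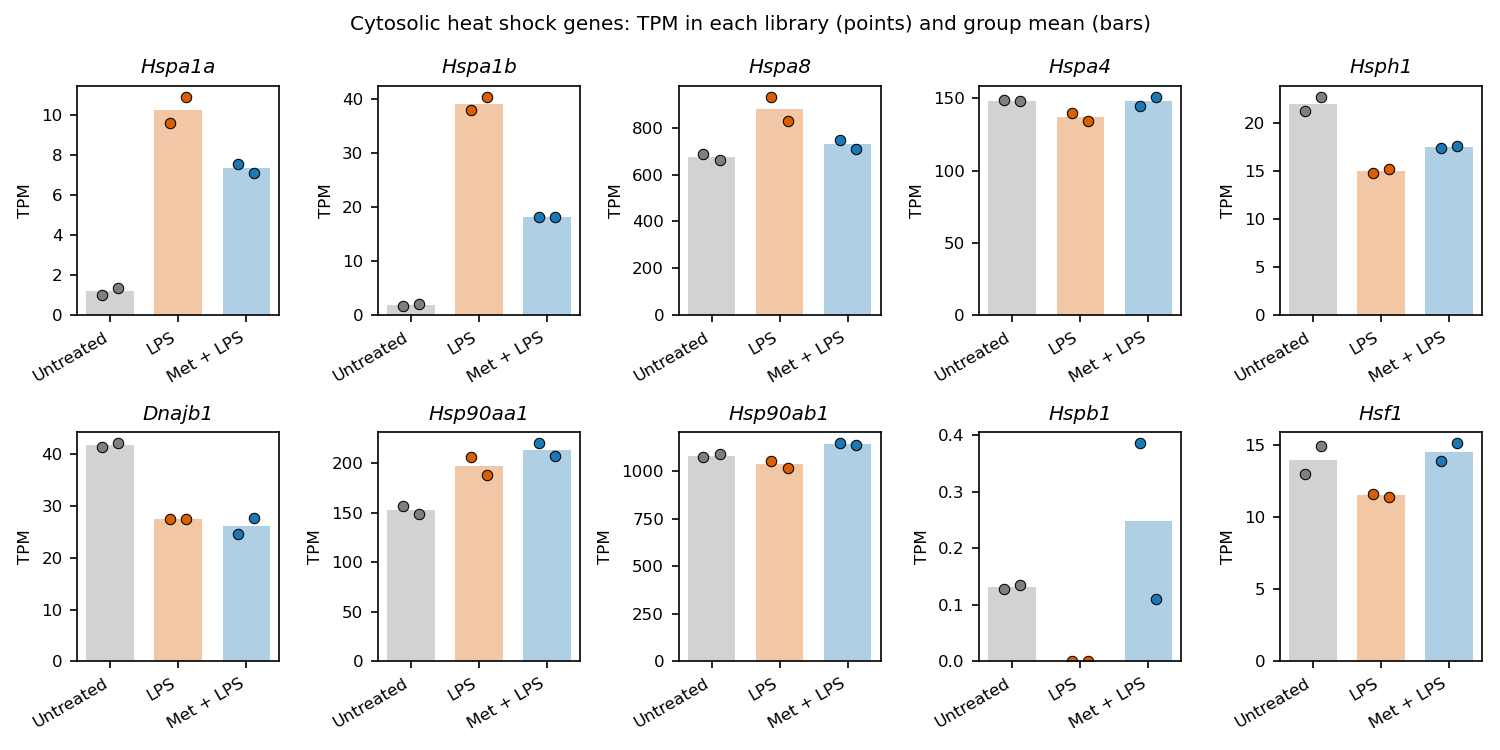
TPM (vertical axes, each from 0) of the 10 genes in the untreated, LPS and Met + LPS groups. Points are single libraries and bars are means of 2 libraries. Hspa1b stands at 1.64 and 2.04 TPM in untreated cells, 37.9 and 40.4 after LPS and 18.2 in both Met + LPS libraries, while Hsp90ab1 stays between 1019 and 1147 TPM.

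Hspa1b (ENSMUSG00000090877, GRCm38, chromosome 17, 34956436 to 34959238, a single exon) changed most among the 10 genes. It measured 1.64 and 2.04 TPM in untreated cells, 37.9 and 40.4 TPM after LPS and 18.2 TPM in both Met + LPS libraries. These values rest on 35 and 41, 808 and 826, and 385 and 451 reads, which were recovered from the TPM values. Every LPS library lay above every Met + LPS library, and these above both untreated ones. With LPS the mean rose from 1.84 ± 0.283 to 39.1 ± 1.78 TPM (SD, n = 2 each), which is 21.2-fold, and with metformin pretreatment it was 18.2 ± 0.00667 TPM. It thus fell by 53.5% relative to LPS alone and was 9.87-fold above untreated cells. The log2 fold changes on the log2(TPM + 1) scale, where changes of genes with low TPM come out too small, were 3.82 ± 0.08 (SE; adjusted p = 8.61e-08) for LPS vs. untreated, -1.06 ± 0.08 (adjusted p = 0.000124) for Met + LPS vs. LPS and 2.76 ± 0.08 (adjusted p = 4.23e-07) for Met + LPS vs. untreated, from limma with Benjamini-Hochberg adjustment over the 12755 genes.

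Hspa1a (ENSMUSG00000091971, chromosome 17, 34969190 to 34972156, also a single exon) measured 1.02 and 1.36 TPM in untreated cells, 9.61 and 10.9 TPM after LPS and 7.54 and 7.12 TPM after Met + LPS. The 3 groups did not overlap and stood in the same order as for Hspa1b. LPS raised the mean 8.58-fold, to 10.2 ± 0.88 TPM against 1.19 ± 0.244 in untreated cells (SD, n = 2 each). This was a log2 fold change of 2.36 ± 0.11 (SE, adjusted p = 2.63e-06 in limma). The mean after Met + LPS, 7.33 ± 0.293 TPM, was 0.716 times that of LPS alone, a log2 fold change of -0.43 ± 0.11 that missed the threshold of 0.01 used here (adjusted p = 0.0166 in limma). With limma voom on the recovered reads this difference was called (-0.48, adjusted p = 0.00124).

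The ratio of the TPM of Hspa1b to that of Hspa1a was 1.61 and 1.5 in untreated cells, 3.94 and 3.72 after LPS, and 2.41 and 2.55 after Met + LPS. No library of a group reached the range of another, but a two-sided exact permutation test of 2 against 2 libraries cannot go below p = 0.333, and the ratio was not tested. The aligned coding sequences of both genes were identical at 1915 positions and differed at 11 (99.4% identical), and only 29.9% of the stretches of 31 bases in the exon of Hspa1a and 31.9% of those of Hspa1b occurred in no other gene. How reads that fit both genes were counted is not given in the sources used here, and the split between the 2 genes is uncertain. Hspa1a further shares 564 exon bases (19% of its length) with Gm20481 on the opposite strand. Summed to 1 value, both genes measured 2.66 and 3.41 TPM in untreated cells, 47.5 and 51.2 TPM after LPS and 25.7 and 25.3 TPM after Met + LPS, with log2 fold changes of 3.65 (adjusted p = 2.01e-07) for LPS vs. untreated and -0.92 (adjusted p = 0.000385) for Met + LPS vs. LPS in limma. The direction of each change was thus the same for the sum.

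By TPM, the inducible Hsp70 remained low beside Hspa8, although how reads shared between genes were counted is not given. The summed TPM of Hspa1a and Hspa1b was 0.387% and 0.516% of the TPM of Hspa8 in untreated cells, 5.09% and 6.17% after LPS, and 3.43% and 3.55% after Met + LPS. The groups did not overlap.

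**Figure D2:**
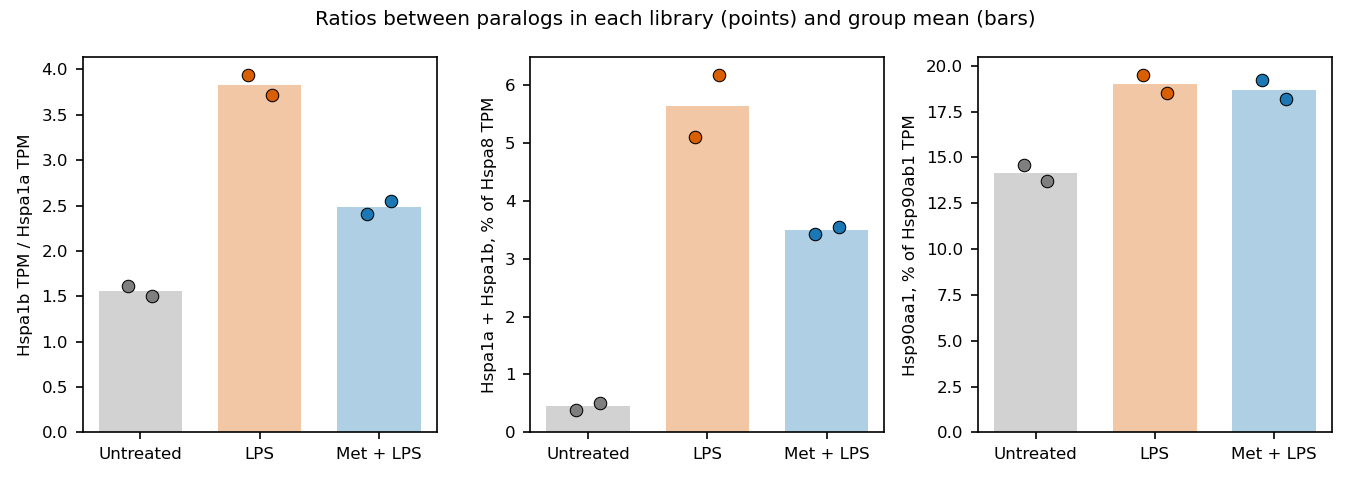
Ratios of TPM between related genes in each library (points) and their means (bars) in the 3 groups. From left to right, the axes give Hspa1b over Hspa1a, the sum of Hspa1a and Hspa1b as a percentage of Hspa8, and Hsp90aa1 as a percentage of Hsp90ab1. The first 2 ratios are highest after LPS (3.94 and 3.72, and 5.09% and 6.17%), and the third lies between 18.2% and 19.5% in the LPS and Met + LPS libraries against 14.6% and 13.7% in the untreated ones.

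Across the 9 tested members, 4 rose and 2 fell with LPS by limma at the threshold of 0.01. Of all 12755 genes, 16.2% rose and 60.1% fell by the same rule. The median log2 fold change of all tested genes was -0.48, and that of the 9 members was -0.06. As TPM adds up to an equal total in each library, such a shift of the median can hide or mimic a change of a single gene. The libraries were also rescaled by the median ratio over the tested genes, which moved the median of all genes to -0.01 and that of the members to 0.46. On this scale 6 members were called higher and 0 lower in limma, against 30.6% and 27.6% of all genes by the same rule. At an unadjusted p under 0.05 it was 7 higher and 0 lower, for which the share of all genes was not determined. Voom on the recovered reads without rescaling called 4 higher and 3 lower (17.1% and 61.8% of all genes). At the cut-off of the study for this comparison, a log2 fold change of 2 or more in either direction, Hspa1a and Hspa1b passed, both upward, as did 3.72% of all genes.

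**Figure D3:**
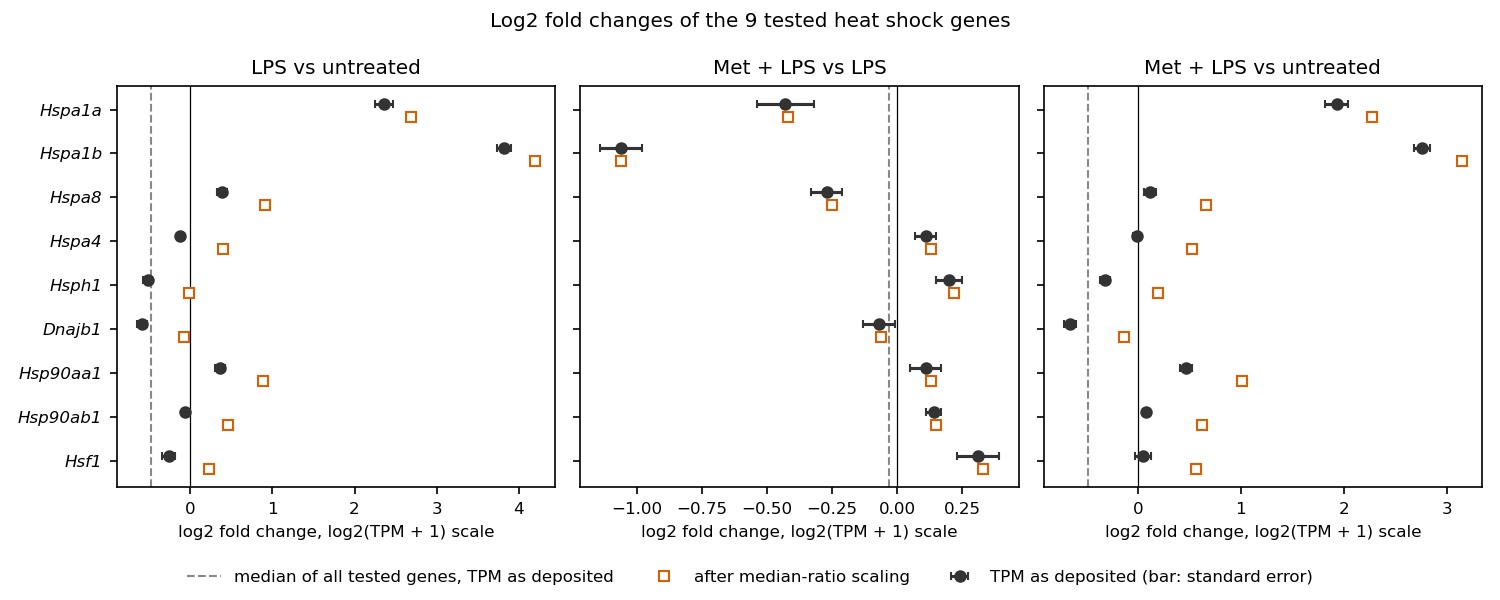
Log2 fold changes (horizontal axes, log2(TPM + 1) scale) of the 9 tested members in the 3 comparisons. Filled points with SE bars are TPM as deposited, open squares are values after median-ratio scaling, and the dashed line is the median of all tested genes as deposited. Rescaling moves Hsph1 from -0.52 to -0.02 and Hsp90ab1 from -0.06 to 0.46 for LPS vs. untreated, and leaves Hspa1b at -1.06 for Met + LPS vs. LPS.

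Hspa8 (ENSMUSG00000015656, chromosome 9, 40800984 to 40810087) encodes Hsc70, the constitutive Hsp70 of the cytosol. It measured 687 and 661 TPM in untreated cells, 933 and 830 TPM after LPS and 750 and 712 TPM after Met + LPS, and the 3 groups did not overlap. LPS raised it 1.31-fold (log2 fold change 0.39 ± 0.06, adjusted p = 0.00086 in limma), and after rescaling the log2 fold change was 0.91. With metformin pretreatment the mean was 731 ± 26.4 against 882 ± 72.7 TPM (SD, n = 2 each). The log2 fold change of -0.27 ± 0.06 was just short of the threshold (adjusted p = 0.0108 in limma), and it passed with voom (adjusted p = 2.53e-05). The higher of the LPS libraries was replicate 1. The log2 fold change for Met + LPS vs. LPS was -0.18 without LPS replicate 1 and -0.35 without LPS replicate 2. It was -0.30 without Met + LPS replicate 1 and -0.23 without Met + LPS replicate 2. Only 55.2% of the stretches of 31 bases of Hspa8 occurred in no other gene, and its exons contain the snoRNA genes Snord14c, Snord14d and Snord14e.

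Hsp90aa1 (ENSMUSG00000021270, chromosome 12, 110690605 to 110702728), the inducible Hsp90, measured 157 and 149 TPM in untreated cells, 206 and 188 TPM after LPS and 220 and 207 TPM after Met + LPS. Both stimulated groups lay above the untreated one and close to each other. The log2 fold changes were 0.36 ± 0.06 for LPS vs. untreated (adjusted p = 0.000811), 0.47 ± 0.06 for Met + LPS vs. untreated (adjusted p = 0.000202) and 0.11 ± 0.06 for Met + LPS vs. LPS (adjusted p = 0.136, all in limma). Without replicate 2 of the untreated libraries, the increases of Hspa8 (0.36) and Hsp90aa1 (0.32) with LPS missed the threshold at adjusted p-values of 0.0141 and 0.0124 in limma, which left 2 members called higher. Of the stretches of 31 bases of Hsp90aa1, 48.5% occurred in no other gene.

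Hsp90ab1 (ENSMUSG00000023944, chromosome 17, 45567775 to 45573271) measured 1073 and 1093 TPM in untreated cells, 1054 and 1019 TPM after LPS and 1147 and 1136 TPM after Met + LPS. The groups lay within 1019 to 1147 TPM, with Met + LPS highest. The log2 fold changes were -0.06 ± 0.03 for LPS vs. untreated (adjusted p = 0.102) and 0.14 ± 0.03 for Met + LPS vs. LPS (adjusted p = 0.0115), neither of which passed in limma. After rescaling both did, at 0.46 (adjusted p = 1.68e-05) and 0.15 (adjusted p = 0.00634). The TPM of Hsp90aa1 as a percentage of that of Hsp90ab1, which does not depend on the scaling of the libraries, was 14.6% and 13.7% in untreated cells, 19.5% and 18.5% after LPS and 19.2% and 18.2% after Met + LPS. The share of the inducible form was higher in all 4 stimulated libraries than in the untreated ones, and the ranges of LPS and Met + LPS overlapped.

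Dnajb1 and Hsph1 were the members that fell with LPS. Dnajb1 (ENSMUSG00000005483, chromosome 8, 83608193 to 83612653), the stress-inducible Hsp40 that stimulates the ATPase of Hsp70, measured 41.4 and 42.0 TPM in untreated cells, 27.4 TPM in both LPS libraries and 24.5 and 27.7 TPM after Met + LPS. Its log2 fold changes were -0.59 ± 0.06 for LPS vs. untreated (adjusted p = 0.000118) and -0.66 ± 0.06 for Met + LPS vs. untreated (adjusted p = 6.66e-05), while LPS and Met + LPS overlapped (-0.07 ± 0.06, adjusted p = 0.385, all in limma). Relative to the median gene there was little left of this fall. After rescaling its values were -0.08 (adjusted p = 0.307) and -0.13 (adjusted p = 0.0902), both short of the threshold.

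Hsph1 (ENSMUSG00000029657, chromosome 5, 149614287 to 149636376), the inducible Hsp110 that acts as a nucleotide exchange factor for Hsp70, measured 21.2 and 22.7 TPM in untreated cells, 14.8 and 15.2 TPM after LPS and 17.4 and 17.6 TPM after Met + LPS. The groups did not overlap, and Met + LPS lay between the other two. The log2 fold changes were -0.52 ± 0.05 (adjusted p = 0.000107) with LPS and -0.32 ± 0.05 (adjusted p = 0.00131) with Met + LPS, each against untreated cells. That for Met + LPS vs. LPS was 0.20 ± 0.05 and missed the threshold (adjusted p = 0.0196 in limma). After rescaling, the value for LPS vs. untreated was -0.02 (adjusted p = 0.739) and that for Met + LPS vs. untreated had the opposite sign, 0.20 (adjusted p = 0.0132). Dnajb1 and Hsph1 were not called higher with LPS on either scale, whereas Hspa1a, Hspa1b, Hspa8 and Hsp90aa1 were called higher on both.

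Hspa4 (ENSMUSG00000020361, chromosome 11, 53259814 to 53300457), a constitutive Hsp110 relative, measured 149 and 148 TPM in untreated cells, 140 and 134 TPM after LPS and 145 and 151 TPM after Met + LPS. These are narrow ranges, and Met + LPS overlapped with untreated cells. In limma the log2 fold changes were -0.12 ± 0.04 for LPS vs. untreated (adjusted p = 0.0243) and 0.11 ± 0.04 for Met + LPS vs. LPS (adjusted p = 0.0488), neither past the threshold. The first turned to 0.40 (adjusted p = 9.67e-05) after rescaling.

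Hsf1 (ENSMUSG00000022556, chromosome 15, 76477422 to 76501913) encodes the transcription factor HSF1 itself, whose activity is mainly set after translation. It measured 13.0 and 14.9 TPM in untreated cells, 11.6 and 11.4 TPM after LPS and 13.9 and 15.1 TPM after Met + LPS. The LPS libraries were the lowest, and Met + LPS overlapped with untreated cells. The log2 fold changes in limma were -0.26 ± 0.08 for LPS vs. untreated (adjusted p = 0.0176) and 0.31 ± 0.08 for Met + LPS vs. LPS (adjusted p = 0.0162). Neither passed the threshold, and the first was 0.23 (adjusted p = 0.0349) after rescaling. With voom on the recovered reads both passed, at -0.26 (adjusted p = 0.00353) and 0.34 (adjusted p = 0.000661). With median-ratio size factors, however, voom called the first in the opposite direction, at 0.25 (adjusted p = 0.00515), so that the direction for LPS vs. untreated depends on the scaling.

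Hspb1 (ENSMUSG00000004951, chromosome 5, 135887919 to 135889563), a small heat shock protein that holds unfolded proteins without ATP, was near the limit of detection. It had 1 read in each untreated library, 0 in each LPS library and 3 and 1 in the Met + LPS libraries, or between 0 and 0.385 TPM. A library without a read allows a level of up to 3 reads, which is 0.329 to 0.406 TPM over the libraries and covers counting error only. No difference was detectable at this depth, and Hspb1 was not tested.

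With metformin pretreatment before LPS, 1 of the 9 tested members, Hspa1b, fell by limma at the threshold of 0.01 and 0 rose. Among all tested genes 18% fell and 14.5% rose. After rescaling, 1 member was higher (Hsp90ab1) and 1 lower, against 15.6% and 17.4% of all genes. At an unadjusted p under 0.05, 3 members were lower and 4 higher, but the share of all genes at that looser threshold was not determined. Voom on the recovered reads called 3 lower (Hspa1a, Hspa1b and Hspa8) and 3 higher (Hsph1, Hsp90ab1 and Hsf1), against 22.9% and 18.7% of all genes. The 3 Hsp70 genes had negative values, as had Dnajb1, whereas Hsp90aa1, Hsp90ab1, Hspa4, Hsph1 and Hsf1 had positive values, none of which passed in limma as deposited. Hspa1b alone passed the cut-off of the study for this comparison, again applied to limma on log2(TPM + 1). This is a log2 fold change of 0.7 or more in either direction, which 4.09% of all genes passed downward. The median log2 fold change was 0.11 over the members and -0.03 over all tested genes, or 0.13 and -0.02 after rescaling.

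Compared with untreated cells, Met + LPS had 3 members higher (Hspa1a, Hspa1b and Hsp90aa1) and 2 lower (Dnajb1 and Hsph1), against 16.3% and 58.8% of all genes. After rescaling, 7 members were higher and 0 lower in limma, against 33.4% and 29.7% of all genes by the same rule. At an unadjusted p under 0.05 it was 8 higher and 0 lower, for which the share of all genes was not determined. Voom without rescaling called 4 higher and 2 lower (17.8% and 60.7% of all genes). Hspa1a was 6.15-fold above untreated cells (log2 fold change 1.93 ± 0.11, adjusted p = 6.08e-06 in limma). The values of Hspa8 (0.12 ± 0.06), Hsp90ab1 (0.08 ± 0.03), Hsf1 (0.05 ± 0.08) and Hspa4 (-0.01 ± 0.04) did not pass as deposited.

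Further chaperones, co-chaperones and heat shock factors were grouped into 7 lists of 71 genes in all, of which 59 were tested. The lists were made by family, and not all of their genes act in the cytosol. With LPS, 12 rose and 31 fell, against 16.2% and 60.1% of all tested genes. After rescaling 29 were higher and 8 lower, against 30.6% and 27.6%. Their median log2 fold change was -0.34, or 0.17 after rescaling, and that of all tested genes -0.48 and -0.01. The counts of the single lists are to be read against the same shares. The J-domain proteins were spread widest, with 6 of 15 tested genes called higher and 6 lower. Dnaja2, a J-domain partner of Hsc70, rose from 163 TPM in both untreated libraries to 373 and 388 TPM (log2 fold change 1.22), and Dnajb4 rose from 11.2 TPM in both to 28.3 and 28.9 TPM (1.28). Dnajb14, which is anchored in the membrane of the ER, fell from 30.2 and 29.5 to 9.50 and 10.2 TPM (-1.51). These 3 kept their direction and call after rescaling (1.74, 1.77 and -1.01).

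Among the 10 Hsp70 co-chaperones and nucleotide exchange factors, 1 rose and 8 fell with LPS, and after rescaling 3 were higher and 2 lower. Their median log2 fold change of -0.45 was near that of all tested genes (-0.48). The gene that rose was Stip1, the adaptor (Hop) that links Hsp70 to Hsp90, from 123 and 127 to 284 and 275 TPM (log2 fold change 1.16, or 1.68 after rescaling). Bag4, a member of the BAG family of nucleotide exchange factors, fell from 6.25 and 6.61 to 2.20 and 2.40 TPM (-1.17, or -0.75 after rescaling), and Bag2 fell by 0.89 on the log2 scale, which missed the threshold after rescaling (-0.53, adjusted p = 0.0152 in limma). Of the 17 Hsp90 co-chaperones, 2 rose and 11 fell. Ttc4 and Cdc37l1, with log2 fold changes of -1.15 and -0.99, stayed lower after rescaling (-0.64 and -0.51). Ahsa1, the activator of the Hsp90 ATPase, fell from 254 and 250 to 159 and 162 TPM (-0.65), which was -0.12 (adjusted p = 0.0115 in limma) after rescaling.

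Of the 4 tested Hsp70 and Hsp110 relatives, 2 fell with LPS. They were Hspa2 (-0.88, or -0.41 after rescaling) and Hspa14 (-0.50), which had a value of 0 after rescaling. All 3 tested heat shock factors and regulators fell as well. The values were -1.10 for Hsf4, -0.42 for Hsf2 and -0.36 for Hsbp1, a protein that binds the trimer of HSF1, and of these only Hsf4 remained called after rescaling (-0.64), where Hsf2 and Hsbp1 had positive values (0.05 and 0.17). Of the small heat shock proteins 2 of 6 were tested and Hspb6 fell (-0.61, or -0.16 and not called after rescaling). The 8 subunits of TRiC, the cytosolic chaperonin that folds actin and tubulin, had 3 members called higher (Cct3 at 0.27, Cct8 at 0.26 and Tcp1 at 0.15) and 5 not called. After rescaling all 8 were higher.

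**Figure D4:**
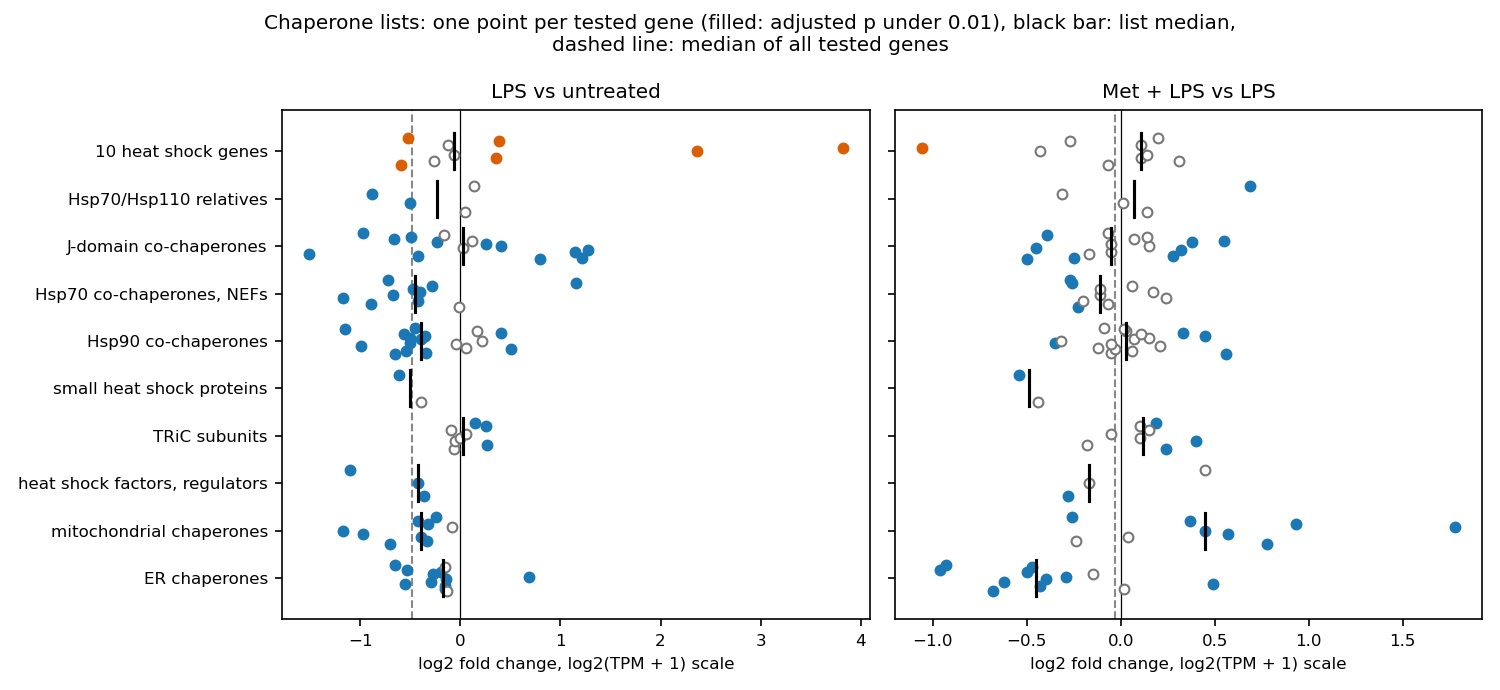
Log2 fold changes (horizontal axes, log2(TPM + 1) scale) of the tested genes of each list (rows) for LPS vs. untreated and Met + LPS vs. LPS. Filled points passed an adjusted p under 0.01, black bars are list medians and dashed lines the median of all tested genes (-0.48 and -0.03). Hspa1b at 3.82 and -1.06 is the outermost of the cytosolic genes in both panels, and Hspa9 at 1.78 is the outermost point on the right.

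For Met + LPS vs. LPS, 11 of the 59 genes rose and 10 fell, close to the 14.5% and 18% of all tested genes, with a median log2 fold change of 0.01. These counts were smaller with fewer libraries. Without any single library between 6 and 8 were called higher and 4 or 5 lower, and without LPS replicate 2 it was 6 and 5. Among those that fell, Stip1 measured 232 and 235 TPM after Met + LPS (-0.26). Dnaja1, a J-domain partner of Hsc70, measured 29.3 and 27.6 TPM in untreated cells, 51.1 and 49.7 TPM after LPS and 35.9 and 35.1 TPM after Met + LPS (-0.50). Further decreases included those of Dnajb5 (-0.45), Stub1 (-0.27), Bag1 (-0.23), Fkbp4, a prolyl isomerase that binds Hsp90 (-0.35), Hspb6 (-0.54) and Hsbp1 (-0.28). Dnaja2, which had risen with LPS, was also called lower (-0.25).

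The largest increases in this comparison were those of Hspa4l, an Hsp110 relative, from 4.83 and 4.66 to 8.19 and 8.41 TPM (log2 fold change 0.69), and of Ahsa1, which measured 236 and 238 TPM (0.56). Dnajc21 (0.55), Ppid (0.45) and the TRiC subunits Cct4 (0.40), Cct2 (0.24) and Tcp1 (0.19) rose as well. Dnajb4, which had risen with LPS, was called higher again (0.32). By list, 4 of 15 J-domain proteins rose and 4 fell, 3 of 17 Hsp90 co-chaperones rose and 1 fell, 3 of 8 TRiC subunits rose, 1 of 4 Hsp70 and Hsp110 relatives rose, and 3 of 10 Hsp70 co-chaperones, 1 of 3 heat shock factors and regulators and 1 of 2 small heat shock proteins fell. Against untreated cells, 15 of the 59 genes were higher and 30 lower after Met + LPS, against 16.3% and 58.8% of all tested genes. After rescaling it was 32 and 10, against 33.4% and 29.7%.

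Lists of mitochondrial and ER chaperones are given for comparison. Of the 9 mitochondrial chaperones, 6 rose and 1 fell for Met + LPS vs. LPS, led by Hspa9, the mitochondrial Hsp70, from 247 and 232 to 809 and 840 TPM (log2 fold change 1.78), and Hspd1, the mitochondrial chaperonin Hsp60 (0.93). Of the 12 tested ER chaperones, 9 fell and 1 rose, and Pdia4 (-0.96), Sdf2l1 (-0.93) and Calr (-0.68) fell most. Of all tested genes 14.5% rose and 18% fell in this comparison. With LPS alone, 8 of the 9 mitochondrial chaperones fell, or 3 after rescaling with 3 higher, and 9 of the 12 ER chaperones fell, or 9 higher after rescaling, where 60.1% of all tested genes fell as deposited and 30.6% were higher and 27.6% lower after rescaling. Whether the cytosolic members differed from these lists was not tested.

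The genes whose pattern over the 6 libraries was most like that of Hspa1b, by Pearson's r on log2(TPM + 1) among 4844 genes whose group means differed by at least 1 on that scale, were Rcsd1 (0.99995), Foxp4 (0.99984) and Vasp (0.99983). For Hspa1a they were Gm5970 (0.99949), Ccng2 (0.99923) and Ogfr (0.99918). With 3 groups of 2 libraries, such values describe a shared order of the groups.

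Between 25457016 and 30762754 reads per library fell on genes. All 10 macrophage markers were at 1 TPM or more in all 6 libraries. Their summed level was 45634 to 47647 TPM in untreated cells, 38249 to 38612 TPM after LPS and 31316 to 31408 TPM after Met + LPS, without overlap. Lyz2 made up most of it, with 33981 and 35844 TPM untreated, 26974 and 26696 after LPS and 21203 and 21381 after Met + LPS. Single markers differed with LPS, as Csf1r fell from 1839 and 1943 to 1343 and 1308 TPM. Adgre1 rose from 1510 and 1575 to 1750 and 1684 TPM. Markers of B cells, dendritic cells and fibroblasts did not reach 1 TPM in all 6 libraries, and Hbb-bt, a globin gene of erythroid cells, was at 0 throughout. Of the 3 mast cell markers only Kit did (Mcpt4 was at 0), and their sum was 20.6 to 21.1 TPM in untreated cells, 8.00 to 8.18 TPM after LPS and 23.2 to 24.4 TPM after Met + LPS. The sum of the 6 neutrophil and granulocyte precursor markers was 27.7 to 30.9, 24.5 to 26.2 and 40.8 to 42.4 TPM in the same order, and that of the 4 T cell markers, of which Cd4 reached 1 TPM, was 6.23 to 6.92, 3.81 to 4.30 and 2.72 to 3.58 TPM. These sums moved with the groups, and their part in the results was not tested. In such bulk libraries, fewer cells of a type and less RNA per cell cannot be told apart.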

How the data were processed

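Poly-A RNA libraries of BMDMs were sequenced in 3 groups of 2. Per the labels and the study's methods, the authors aligned reads to GRCm38 with STAR 2.6.1d, counted them per gene with featureCounts (Subread 1.6.3) and deposited TPM for 54532 genes. How the counts became TPM, and how reads shared by several genes were treated, is not given in the sources used here. A gene was tested if 2 or more of the 6 libraries reached 1 TPM. The test was limma (version 3.58.1, R 4.3.3) on log2(TPM + 1), using lmFit and eBayes with a trend on all 6 libraries (3 residual degrees of freedom), Benjamini-Hochberg adjustment and a threshold of 0.01. It was run on simulated data with a fixed spread, in which genes changed only in Met + LPS. That run therefore does not cover a shift of the median gene such as the one between LPS and untreated cells. Reads were recovered as TPM times exon length (GENCODE annotation, 54495 genes), which was a whole multiple of a common step within 0.05 for 96.4% to 96.6% of the values above 0, and served for voom (12750 genes). Sequences were searched in Python 3.11.15 and aligned with Biopython 1.88. Plots were drawn with matplotlib 3.10.9.

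The members and lists were chosen with earlier results of these data known. Genes named from a list are at most 3 for each of LPS vs. untreated and Met + LPS vs. LPS, taken by the size of the log2 fold change among called genes whose libraries did not overlap. Alternatives were another pseudocount (0.1), the filter (none, or 5 TPM), median-ratio scaling, a fit without the third group, the replicate number as a block, eBayes with no trend, leaving out each library, voom with and without median-ratio size factors, the sum of Hspa1a and Hspa1b, and a threshold of 0.05.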

Additional observations from a re-analysis of the deposited data

How the results depend on the processing

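Over 27 results (9 members in 3 comparisons) and 17 alternatives, 400 of 459 values kept direction and side of the threshold, 34 gained a call, 9 lost it and 16 changed sign. The increases of Hspa1a and Hspa1b with LPS and the decrease of Hspa1b with metformin (-1.11 to -1.02 with each library left out) were called under every alternative. The scaling of the libraries mattered most. Median-ratio scaling, and voom with median-ratio size factors in brackets, moved the members called for LPS vs. untreated from 4 higher and 2 lower to 6 and 0 (7 and 0), those for Met + LPS vs. untreated from 3 and 2 to 7 and 0 (8 and 0), the genes of the 7 lists for LPS vs. untreated from 12 and 31 to 29 and 8 (30 and 11) and for Met + LPS vs. untreated from 15 and 30 to 32 and 10 (33 and 11). It reversed Hspa4 (0.40, voom 0.41), Hsp90ab1 (0.46 in both) and Hsf1 (0.23, voom 0.25) for LPS vs. untreated, and Hspa4 (0.53, voom 0.54) and Hsph1 (0.20, voom 0.21) for Met + LPS vs. untreated, where Hspa4 was also 0.01 with voom alone. For Met + LPS vs. LPS, the members called were 0 higher and 1 lower in limma, 1 higher with median-ratio scaling, 2 and 3 at a minimum of 5 TPM, 3 and 3 with voom under either scaling, and 4 and 3 at an adjusted p under 0.05, which also gave 4 lower for LPS vs. untreated. The list genes for Met + LPS vs. LPS, 11 higher and 10 lower, were 7 and 5 with the compared groups only and 6 and 5 without a trend, and 5 were lower without a filter. Summing Hspa1a and Hspa1b left 1 value past the cut-off for LPS vs. untreated. Shares of all genes are given above for TPM as deposited, median-ratio scaling and voom without size factors. For the other alternatives they were not determined. Those counts therefore show only how the calls move with the setting, and an equal move over all genes cannot be told apart.

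With each library left out, the members called ranged from 2 to 4 higher for LPS vs. untreated (2 without replicate 2 of the untreated libraries), 1 to 2 lower for Met + LPS vs. LPS (2 without LPS replicate 2) and 1 to 2 lower for Met + LPS vs. untreated (1 without replicate 2 of the untreated libraries, where Hsph1 was -0.27 with an adjusted p of 0.0141 in limma). The list genes for Met + LPS vs. LPS ranged from 6 to 8 higher and 4 to 5 lower. Values near 0 changed sign, with ranges of -0.16 to 0.01 for Dnajb1 (Met + LPS vs. LPS), -0.03 to 0.02 for Hspa4 and -0.04 to 0.15 for Hsf1 (both Met + LPS vs. untreated). The log2 ratio of Hspa1a plus Hspa1b to Hspa8 was -7.76 in untreated cells and -4.84 after Met + LPS with a pseudocount of 0.1, against ranges of -7.55 to -7.23 and -4.81 to -4.76 over the libraries with 1.

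The labels do not state whether libraries with the same replicate number are paired. Over all tested genes, the deviations of same-numbered libraries from their group means correlated with r between -0.003651 and 0.02842. No shared deviation was thus seen over the genes as a whole, and the block was not used for the values reported. Single members can still differ, as replicate 1 was above replicate 2 in each group for Hspa8 and Hsp90aa1 and below it for Hsph1. With the replicate block, 2 members were lower for Met + LPS vs. LPS in place of 1, Hspa8 being added (adjusted p = 0.00294 in limma). The cause of these shifts was not tested, apart from the scaling and fewer samples or genes that the alternatives themselves impose. The 2 libraries per group limit what could be called, and Hspb1, with at most 3 reads, is beyond the depth.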
